A study of Mus musculus with 24 samples.

Results

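Late mammary tumors from mice on opposite crossover diets were compared, 3 HFD-LFD tumors with 4 LFD-HFD tumors, which are 7 of the 24 arrays of the series. Members were taken by their labels alone: diet HFD-LFD or LFD-HFD, and onset late. All were tumors of female BALB/c mice given the carcinogen 7,12-dimethylbenz[a]anthracene (DMBA) by gavage during puberty. HFD-LFD mice ate a high animal fat diet (HFD) from weaning and were moved to a low fat diet (LFD) after puberty, so that they met the HFD in puberty alone. LFD-HFD mice ate the LFD first and the HFD in adulthood alone. The comparison therefore turns round the pubertal diet and the adult diet at once, and the parts of the 2 diets cannot be told apart in it. The question it addresses is whether late tumors carry a different expression profile when the HFD fell in puberty rather than in adulthood. The tumors are whole pieces of tissue, so fewer cells of a type and less RNA per cell cannot be told apart. DMBA tumors differ in histology from one to the next, and the histology of these 7 was not matched to the arrays here. For its late HFD-LFD tumors the paper lists a papillary, a glandular and an adenosquamous carcinoma. For LFD-HFD it lists a papillary carcinoma and 3 glandular ones. Only the glandular tumors among these are listed as positive for hormone receptors. The groups thus differ in listed histology as well as in diet, and the 2 cannot be told apart.

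DMBA is metabolized to products that bind DNA, and in the mouse mammary gland it gives tumors that range from luminal, hormone receptor-positive lesions to squamous ones. The gland's epithelium holds luminal cells, which carry the estrogen, progesterone and prolactin receptors and make milk, and basal cells, many of them contractile myoepithelium. Squamous differentiation replaces these programs with the keratins and envelope proteins of skin. Dividing cells transcribe histone, DNA replication and mitosis genes in successive waves, and several of these promoters carry CCAAT boxes that bind the factor NF-Y.

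Each array compared tumor RNA with a universal mouse reference RNA pooled from cell lines, and every level is log2 of tumor over reference at 1 probe per gene. The labels put the tumor in Cy5 and the reference in Cy3, opposite to the dyes in the study's methods text. The labels' direction was used, since the median SD over the 24 arrays of 14138 bright probes was 0.614 in Cy5 and 0.268 in Cy3, and 2 probes of Y chromosome genes had log2 Cy5/Cy3 of -4.41 to -3.63 on the 7 arrays of these female mice. Probes well above background made up 66.3% to 79.7% of the tumor channel and 62.5% to 73.9% of the reference channel. Rows of spots were dim in Cy5 on HFD-LFD tumor 3 and on LFD-HFD tumors 1, 2 and 4, in bands down to -6.21 against no lower than -0.23 elsewhere, and were left out. These rows held 20.2% to 28.3% of the spots of those 4 arrays. Of 20961 genes tested, 11032 were measured on all 7 tumors, 5808 on 6, 13 on 5 and 4108 on 4. HFD-LFD tumors 1 and 2 and LFD-HFD tumor 3 were scanned in session 2, and the others in session 3, so both groups were present in each session, with 1 LFD-HFD tumor in session 2 and 1 HFD-LFD tumor in session 3. HFD-LFD tumors 1 and 2 lay on slide 5, which held no LFD-HFD tumor. Slide 7 alone held tumors of both groups. In the titles HFD-LFD tumor 3 and LFD-HFD tumor 4, which lay on the same slide, share a number and differ in its letter, and the labels do not say whether they are related. Nothing in the labels says that the tumors of a group were processed independently, so p-values measure the spread between samples within groups. That spread was shared over the 6 groups of all 24 arrays, so it is not the spread of these 7 tumors alone.

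By the moderated test of limma no gene passed an adjusted p of 0.05 (0 of 20961, 0%). The smallest adjusted p was 0.145, shared by Cyp2d10 and BC024137. Without adjustment, 1520 genes had p under 0.05 (7.25%), of which 728 were higher (3.47%) and 792 lower (3.78%) in HFD-LFD tumors. Groups did not overlap for 1805 genes that were higher (8.61%) and 2073 that were lower (9.89%). Fewer measured tumors gave more such genes, with 6.21% and 5.73% among genes measured on 7 tumors against 18.4% and 21.7% among those measured on 4. The median difference over all genes was -0.01 log2 units, and 48.2% of genes were higher. Centring each array on its median in place of the loess curve moved that median to -0.14 and the split at an unadjusted p under 0.05 to 331 higher and 1138 lower. Without HFD-LFD tumor 1, 20 genes passed an adjusted p of 0.05 in limma, 18 higher and 2 lower, among them Tcf7, Cyp2d10, AW061096, Fam120b and BC024137. Cyp2d10 then rested on 1 HFD-LFD tumor. Leaving out any other tumor gave 0. Since no gene was called on the 7 tumors, every difference below is a value with its error and not a call.

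The 4 LFD-HFD tumors were close to each other, whereas HFD-LFD tumors 1 and 3 stood apart and HFD-LFD tumor 2 lay near the LFD-HFD tumors. Over the genes measured, the correlation between pairs of LFD-HFD tumors was 0.920 to 0.951 (6 pairs), between pairs of HFD-LFD tumors 0.742 to 0.839 (3 pairs), and between groups 0.716 to 0.910 (12 pairs). These are descriptions across genes on arrays that share a reference. HFD-LFD tumor 2 correlated with the LFD-HFD tumors at 0.895 to 0.910, above its correlation with either tumor of its own group. HFD-LFD tumor 3 had the lowest range with LFD-HFD tumors, 0.716 to 0.781. Because of this spread within the HFD-LFD group, the genes the results turn on are given tumor by tumor.

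Promoters are shown for 3 genes of the histone and proliferation groups described below, chosen after their values were seen. The linker histones H1f1 and H1f5 compact chromatin, and Top2a encodes the topoisomerase that untangles sister DNA. Each run holds 250 bases before and 50 after the transcription start, from RefSeq on build GRCm38.p6, written 5′ to 3′ on the gene's strand. Capitals mark AAACACA (the H1 box of linker histone promoters), CCAAT and TTTGAA (a form of the cell cycle homology region) on either strand, so that ATTGG is CCAAT and TTCAAA is TTTGAA read from the other strand.
H1f1, chr13:23763418-23763717, strand plus: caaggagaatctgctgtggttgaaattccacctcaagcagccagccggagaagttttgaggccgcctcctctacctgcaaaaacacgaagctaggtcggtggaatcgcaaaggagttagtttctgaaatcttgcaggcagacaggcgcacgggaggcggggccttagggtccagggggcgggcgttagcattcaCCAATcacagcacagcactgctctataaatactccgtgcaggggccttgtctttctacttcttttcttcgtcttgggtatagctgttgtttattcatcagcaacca
H1f5, chr13:21780576-21780875, strand minus: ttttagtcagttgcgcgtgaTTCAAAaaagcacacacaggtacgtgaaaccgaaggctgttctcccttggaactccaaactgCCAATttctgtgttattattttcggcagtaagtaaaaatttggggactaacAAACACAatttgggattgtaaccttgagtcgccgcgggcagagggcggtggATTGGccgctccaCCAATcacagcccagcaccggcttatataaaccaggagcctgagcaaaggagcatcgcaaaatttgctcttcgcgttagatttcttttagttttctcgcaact
Top2a, chr11:99024140-99024439, strand minus: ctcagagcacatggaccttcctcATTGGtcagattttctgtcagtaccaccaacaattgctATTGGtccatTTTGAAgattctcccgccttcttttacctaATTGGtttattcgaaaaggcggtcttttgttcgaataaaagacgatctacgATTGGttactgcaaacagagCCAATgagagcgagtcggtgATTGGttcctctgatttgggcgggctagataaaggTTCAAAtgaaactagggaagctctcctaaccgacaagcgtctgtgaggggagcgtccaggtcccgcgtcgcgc
The H1f1 run held 1 CCAAT, the H1f5 run 3, with 1 AAACACA and 1 TTTGAA, and the Top2a run 6 CCAAT and 2 TTTGAA. The letters CCAAT were present in 18 of the 23 tested proliferation genes with a promoter in the table (78.3%), in 31 of 36 replication-dependent histone genes (86.1%) and in 41.1% of all genes with a promoter in the table (37.4% of all promoters of the same length). TTTGAA was present in 43.5%, 36.1% and 20.2% (17.9% of promoters), and AAACACA in 4.35%, 19.4% and 8.22% (7.18% of promoters). A match of letters is a description and not a binding site.

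Proliferation genes were higher in HFD-LFD than in LFD-HFD tumors, by a modest amount. Of 28 tested genes of a list of replication and mitosis genes, 26 were higher and 2 lower (92.9% higher against 48.2% of all genes), with a median difference of +0.61 log2 units. At an unadjusted p under 0.05, 7 were higher (against 3.47% of all genes) and 0 lower. The 7 became 1 under median centring and 1 within each session, 16 with array weights and 17 in a fit of the 7 arrays alone. The count was 4 without HFD-LFD tumor 1, 2 without HFD-LFD tumor 3, 3 without LFD-HFD tumor 1 and 2 without LFD-HFD tumor 4. The groups did not overlap for 21 of the 28, in each case with HFD-LFD higher (8.61% of all genes). For the 8 members measured on 4 tumors it was 7, against 18.4% of all genes so measured. Among the 15 members measured on all 7 tumors the groups did not overlap for 11 (73.3%), against 6.21% of all genes so measured. Their mean level was -0.08, -0.33 and -0.08 in HFD-LFD tumors 1, 2 and 3 and -0.86, -0.60, -0.65 and -0.81 in LFD-HFD tumors 1 to 4. All 3 HFD-LFD values lay above all 4 LFD-HFD values.

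The median of the proliferation list was 0.43 in session 2 (26 of 28 higher) and 0.71 in session 3 (20 of 20 higher), and it ranged from 0.43 to 0.73 over 27 alternative settings. Mki67, the antigen of the Ki67 stain for dividing cells, was -0.65, -0.88 and -0.80 in HFD-LFD tumors and -1.56, -1.55, -1.54 and -1.66 in LFD-HFD tumors. The groups did not overlap, and the difference was +0.80 (SE 0.36, limma unadjusted p = 0.0383, adjusted p = 0.686). Top2a was -0.51, -0.43 and -0.53 against -1.13, -1.52 and -1.31 in LFD-HFD tumors 2 to 4, a difference of +0.83 (SE 0.28, limma adjusted p = 0.637). Birc5, a subunit of the chromosomal passenger complex that also inhibits apoptosis, differed by +1.05 (SE 0.37, limma adjusted p = 0.648). It was 0.09, -0.29 and 0.05 against -0.83, -1.20 and -1.28. Foxm1, which drives transcription of mitotic genes and was picked after its values were seen, was -0.26, -0.24 and -0.24 against -1.18, -0.54, -0.68 and -1.09. All 3 HFD-LFD values were nearly equal and above every LFD-HFD value. Pcna, the sliding clamp of replication, overlapped, with a difference of +0.11 (SE 0.21). Among late tumors of the continuous diets, Mki67 averaged -0.86 ± 0.60 (SD, n = 5) on LFD and -0.57 ± 0.68 (SD, n = 6) on HFD. Both lay nearer the HFD-LFD mean of -0.78 than the LFD-HFD mean of -1.58. Top2a averaged -0.50 ± 0.54 and -0.86 ± 0.38 (SD, n = 4 each), against -0.49 in HFD-LFD and -1.32 in LFD-HFD tumors. Birc5 averaged -0.97 ± 0.57 and -0.97 ± 0.76 (SD, n = 4 each), nearer the LFD-HFD mean of -1.10 than the HFD-LFD mean of -0.05. These contrasts were not tested.

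**Figure D1:**
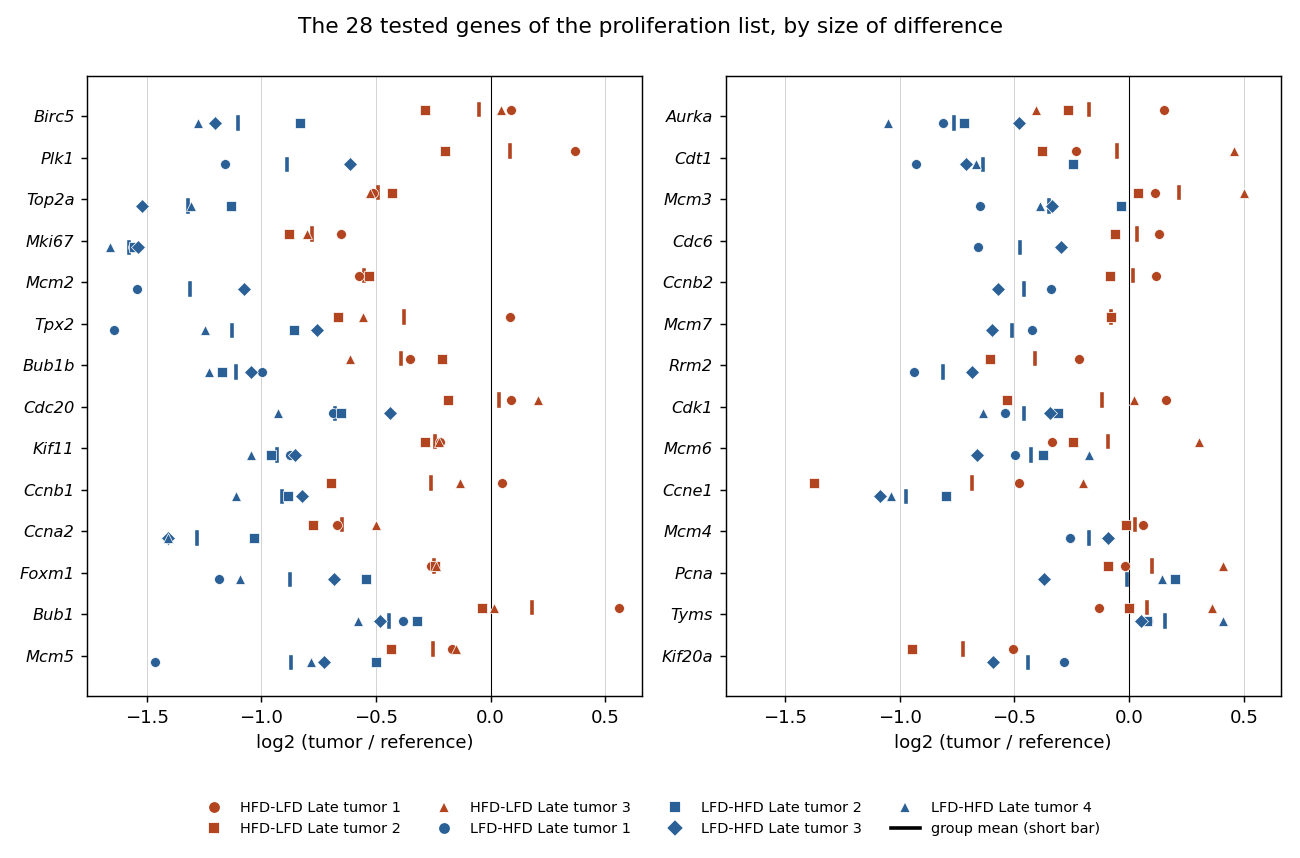
Level of each of the 28 tested proliferation genes in each tumor, as log2 of tumor over reference on the horizontal axis, with genes ordered by the size of the difference, points for tumors and short bars for group means. HFD-LFD points lie to the right of LFD-HFD points without overlap for 21 genes (8.61% of all genes tested), and tumors without a point were in dim rows.

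Linker and core histone genes of the replication-dependent clusters were also higher on the whole. H1f1 (probe at chr13:23855888-23855947, build mm9) was 0.01, 0.29 and 0.90 in HFD-LFD tumors and -1.52, -0.51, -0.80 and -1.46 in LFD-HFD tumors. The groups did not overlap, which the rule that named this gene required. The difference of +1.47 (SE 0.29, 95% interval 0.86 to 2.08, 2.77-fold) had a limma unadjusted p of 5.87e-05 and an adjusted p of 0.308. H1f5 was -0.35, 0.37 and 0.68 against -2.01, -1.14, -1.74 and -2.15, a difference of +2.00 (SE 0.47, limma adjusted p = 0.583). In the continuous-diet late groups H1f1 averaged -1.05 ± 0.32 (SD, n = 5) on LFD and -0.90 ± 0.50 (SD, n = 6) on HFD, near the LFD-HFD mean of -1.07 ± 0.50 (SD, n = 4) and below the HFD-LFD mean of 0.40 ± 0.46 (SD, n = 3).

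Taken as a family after these values were seen, 41 replication-dependent histone genes were tested, 28 higher and 13 lower, with a median of +0.63 and a range of -1.48 to +2.00. At an unadjusted p under 0.05, 20 were higher and 4 lower, against 3.47% and 3.78% of all genes. These counts were 9 and 7 under median centring, 8 and 4 in the tumor channel alone, 4 and 0 within session 2 and 15 and 8 within session 3. Without HFD-LFD tumor 2 they were 9 and 4, without HFD-LFD tumor 3 they were 13 and 0, without LFD-HFD tumor 2 they were 18 and 7, and without LFD-HFD tumor 4 they were 16 and 2. By subfamily 3 of 4 H1, 9 of 12 H2A, 3 of 9 H2B, 6 of 8 H3 and 7 of 8 H4 genes were higher. The family's median kept its sign under the 27 alternatives, from 0.33 to 0.84. Core histone copies are nearly identical in sequence and a probe may bind RNA of several, so the gene named for a core histone is uncertain. The counts above may therefore hold the same core histone signal more than once, and their members are not separate measurements. The 60-base probes of the linker histones H1f1, H1f2, H1f4 and H1f5 matched each other at no more than 18 to 25 positions without gaps.

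Apart from histones, the genes with the smallest p among those that did not overlap were of mixed function. Cyp2d10, a cytochrome P450 (probe at chr15:82233276-82233335, mm9), was measured on 2 tumors a group and was -2.52 and -1.5 against -4.15 and -3.97, a difference of +2.05 (SE 0.34, 95% interval 1.33 to 2.78, limma adjusted p = 0.145). Tdg, which excises mismatched thymine and oxidized methylcytosine from DNA, was -0.05, 0.53 and 0.36 against -0.85, -0.68, -0.54 and -0.61, a difference of +0.95 (SE 0.20, limma adjusted p = 0.393) at the brightest probe and +0.24 and +0.02 at its other probes. The other genes higher in HFD-LFD tumors were Ankrd1 (+1.69), a target of YAP signaling, Padi1 (+1.82), which citrullinates proteins of the epidermis, Slc2a6 (+1.16), a sugar transporter (+0.45 at its other probe), and AW061096 (+0.96). Ankrd1 was at -1.82, -2.39 and -2.77 in HFD-LFD tumors and from -4.23 to -3.59 in LFD-HFD tumors. Padi1 was highest in HFD-LFD tumor 1, at 2.73, with 0.71 and 1.72 in tumors 2 and 3 and -0.34 to 0.10 in LFD-HFD tumors.

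Genes lower in HFD-LFD tumors by the same rule were BC024137, Fam120b, D930023I05Rik, Nat2, Ahcy, Olfr558, Slc18b1, Agmo, P2ry12 and A230092J17Rik. BC024137 (probe at chr8:116678583-116678642, mm9) was 0.35, 0.17 and 0.20 against 1.44, 1.55 and 0.97 in LFD-HFD tumors 2 to 4, a difference of -1.08 (SE 0.18, 95% interval -1.46 to -0.71, limma adjusted p = 0.145). Fam120b, a coactivator of PPAR gamma, was 0.37, 0.21 and -0.03 against 0.98, 0.66, 1.06 and 1.01, a difference of -0.74 (SE 0.14, limma adjusted p = 0.220). Ahcy, which hydrolyzes S-adenosylhomocysteine in the methyl cycle, was -1.70, -1.27 and -1.90 against -0.19, -0.19 and -0.47 in LFD-HFD tumors 2 to 4, a difference of -1.34 (SE 0.29, limma adjusted p = 0.561). At these probes the HFD-LFD tumors lay below every measured LFD-HFD tumor. The other probes of Ahcy differed by -0.35 and -0.55 and overlapped between the groups. D930023I05Rik had the largest difference among these 10 genes, -2.02 (SE 0.42), and rested most on LFD-HFD tumor 2 at 3.27 against 1.67 to 1.91 in the other LFD-HFD tumors. The arylamine N-acetyltransferase Nat2 differed by -0.93, the alkylglycerol monooxygenase Agmo by -1.28, and the purine receptor P2ry12, a microglia and platelet receptor, by -0.80. Olfr558, Slc18b1 and A230092J17Rik differed by -1.04, -0.88 and -0.71.

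**Figure D2:**
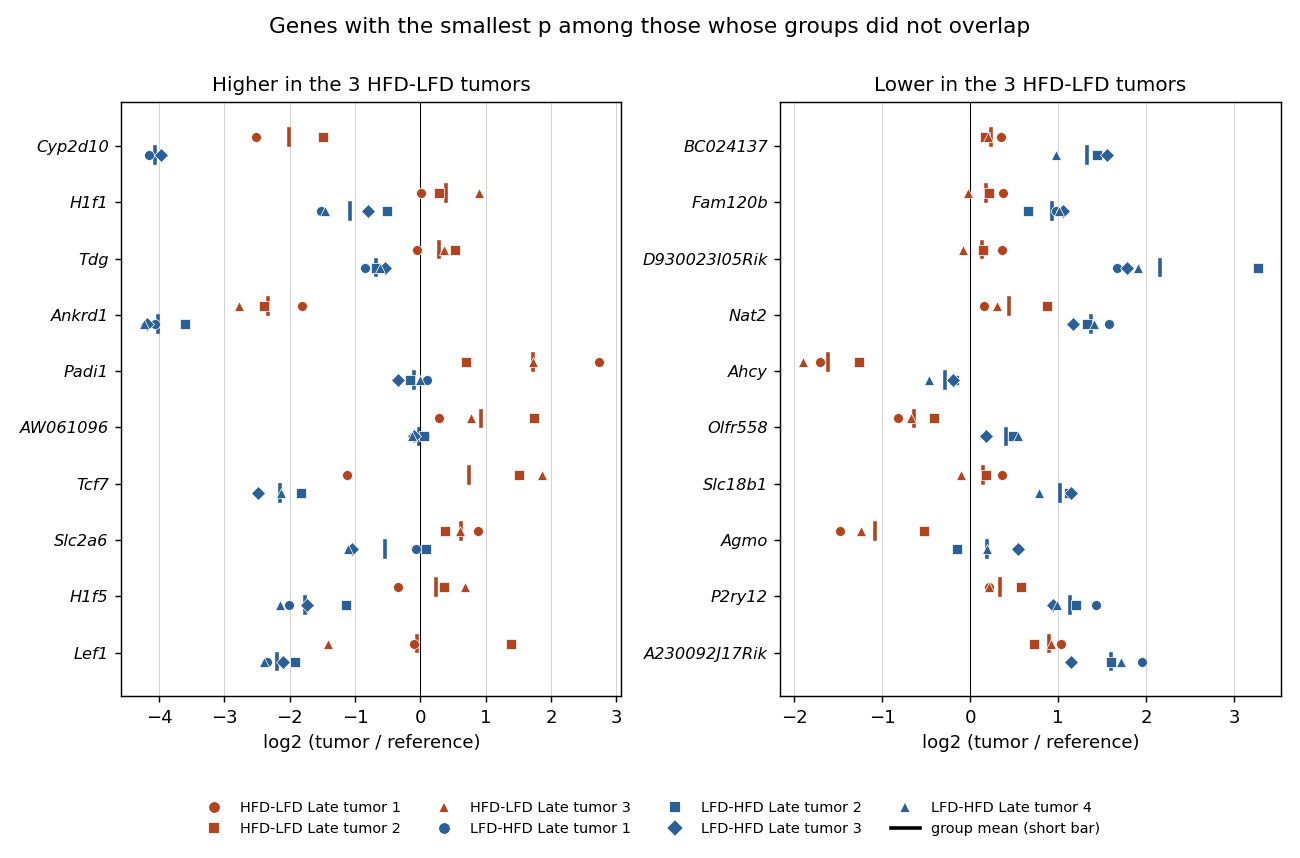
Levels, as log2 of tumor over reference, of the 20 genes with the smallest p among those whose groups did not overlap, those higher in HFD-LFD tumors on the left and those lower on the right. Points are tumors and short bars group means. Tcf7 and Lef1 spread over more than 2 log2 units among HFD-LFD tumors, whereas BC024137 and Fam120b were tight.

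Wnt genes included the pair of transcription factors that carry beta-catenin's signal, Tcf7 and Lef1. Tcf7 was -1.12, 1.5 and 1.86 in HFD-LFD tumors and -1.83, -2.48 and -2.14 in LFD-HFD tumors 2 to 4, a difference of +2.90 (SE 0.65, 95% interval 1.54 to 4.26, limma adjusted p = 0.561). HFD-LFD tumor 1 was the low one, and the difference was +0.80 at the other probe. Lef1 was -0.10, 1.38 and -1.41 against -2.35, -1.93, -2.10 and -2.39, a difference of +2.15 (SE 0.53, limma adjusted p = 0.637), with HFD-LFD tumor 2 the high one. Both genes are also expressed by T cells, whose markers were highest in HFD-LFD tumor 2 as given below, and the part of those cells in these differences was not tested. The secreted Wnt antagonist Wif1, picked after its values were seen, was 1.19, 0.18 and 3.29 against -1.78, -1.03, -0.83 and 0.09, a difference of +2.44 (SE 0.92, limma unadjusted p = 0.0154). Over 16 tested Wnt targets and feedback genes 14 were higher (87.5%), 3 at an unadjusted p under 0.05 (3.47% of all genes), with a median of +0.67. The 3 became 6 without HFD-LFD tumor 2. Without HFD-LFD tumor 1 the median fell to 0.33, with 12 of 16 higher. That tumor was above all LFD-HFD tumors for 14 of 16 members, tumor 2 for 5 of 16 and tumor 3 for 8 of 11, against 25.0% to 31.7% of all genes.

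**Figure D3:**
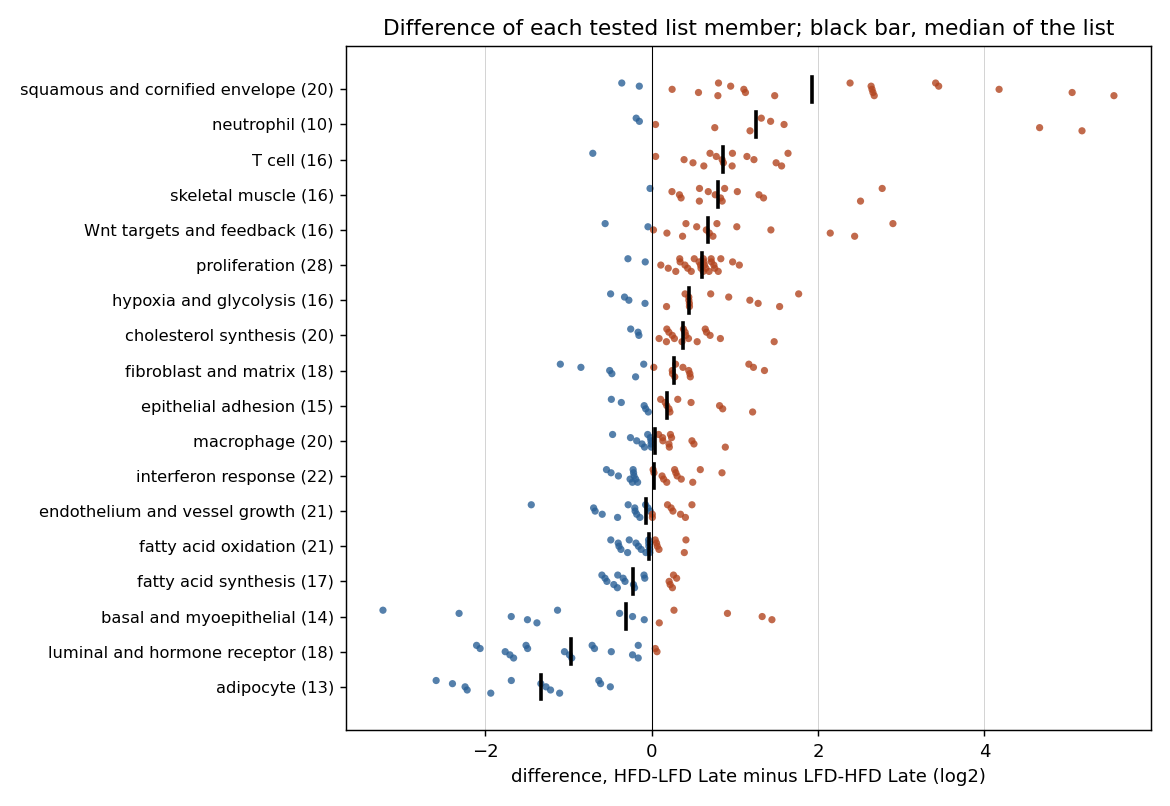
Difference of each tested member of 18 gene lists, HFD-LFD Late minus LFD-HFD Late on the log2 scale, as points, with the list's median as a black bar and the number tested in brackets. Proliferation genes cluster around +0.61, squamous genes spread from -0.36 to +5.56, and adipocyte genes all lie below 0.

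Luminal and hormone receptor genes were lower in HFD-LFD tumors 1 and 3, whereas tumor 2 lay within the LFD-HFD range. The mean level over 10 members was 1.44, 2.28 and 0.75 in HFD-LFD tumors and 2.11 to 2.90 in LFD-HFD tumors. HFD-LFD tumor 1 lay below all LFD-HFD tumors for 12 of 18 members and tumor 3 for 9 of 14, against 29.3% to 32.0% of all genes. Tumor 2 lay below all of them for 4 of 18 (29.3% of all genes) and above all of them for 4 of 18 (25.0% of all genes). Of 18 tested, 16 were lower, 2 of them at an unadjusted p under 0.05 (3.78% of all genes). The median was -0.98 and stayed below 0 under the 27 alternatives (-1.26 to -0.34). Esr1, the estrogen receptor, was 0.28, 1.22 and 0.06 in HFD-LFD tumors and 2.72, 1.16, 2.41 and 2.83 in LFD-HFD tumors. HFD-LFD tumor 2 and LFD-HFD tumor 2 overlapped, and the difference was -1.76 (SE 0.65, 95% interval -3.11 to -0.42, limma unadjusted p = 0.0128, adjusted p = 0.648). It was -0.72 at the other Esr1 probe. The prolactin receptor Prlr was 4.25, 5.46 and 1.67 against 5.41, 4.17, 5.91 and 5.73, so that HFD-LFD tumor 3 alone fell outside the LFD-HFD range, and the difference of -1.51 had an SE of 1.44. The luminal regulator Gata3, picked after its values were seen, was 2.79, 2.54 and 2.22 against 3.31, 3.58 and 3.55, without overlap (difference -0.96, SE 0.52). Krt8, a keratin of simple epithelium, was above the reference in all 7 tumors, at 0.45 to 3.52, as was the mammary epithelial regulator Elf5 in the 6 tumors measured, at 3.23 to 4.21.

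Contractile genes of myoepithelium divided the HFD-LFD tumors among themselves. Cnn1, calponin of smooth muscle, was -1.94, 3.12 and -1.08 in HFD-LFD tumors and 2.60, 3.10, 4.27 and 3.10 in LFD-HFD tumors. HFD-LFD tumor 2 was within the LFD-HFD range and tumors 1 and 3 far below it, so the difference of -3.23 had an SE of 1.56 (limma unadjusted p = 0.051). Myh11, smooth muscle myosin, followed the same order at -2.23, 1.20 and -1.61 against 1.22, 1.78 and 1.30 (difference -2.32, SE 1.11). Over 14 basal and myoepithelial genes 9 were lower, with a median of -0.31, and none passed an unadjusted p of 0.05. Within that list the basal keratins Krt14 (+1.33, SE 1.12) and Krt17 (+1.44, SE 0.92), picked after their values were seen, had the opposite sign to the contractile genes. Krt17 was 1.14, 0.97 and 2.76 against 0.05 to 0.49.

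Squamous and cornified envelope genes were high in HFD-LFD tumor 3, less so in tumor 1 and near the LFD-HFD tumors in tumor 2. Of 20 tested, 18 were higher (90.0%), 4 at an unadjusted p under 0.05 (3.47% of all genes), with a median of +1.93. The groups did not overlap for 9 (8.61% of all genes), 4 of the 9 members measured on 7 tumors among them (6.21% of all genes so measured). The 4 became 9 without HFD-LFD tumor 2, 0 without HFD-LFD tumor 3 and 2 without LFD-HFD tumor 3. HFD-LFD tumor 3 lay above all LFD-HFD tumors for 16 of 16 members measured there, tumor 1 for 17 of 20 and tumor 2 for 9 of 20. Over all genes these shares were 31.7%, 28.1% and 25.0%. The mean level over 9 members was -1.09, -2.25 and 1.40 in HFD-LFD tumors and -2.83 to -2.51 in LFD-HFD tumors. Krt6a, a keratin of activated epidermis, was 1.49, 0.10 and 2.81 against -0.73, -1.82 and -1.09 in LFD-HFD tumors 2 to 4, a difference of +2.67 (SE 0.90, limma adjusted p = 0.637). Sprr1a, an envelope precursor, was 0.90, -1.94 and 3.19 against -3.01, -3.26, -2.30 and -2.20, a difference of +3.41 (SE 1.32, limma adjusted p = 0.654). The list's median was 0.81 in session 2 and 4.40 in session 3, where HFD-LFD tumor 3 was the sole HFD-LFD tumor, and 0.90 without that tumor.

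**Figure D4:**
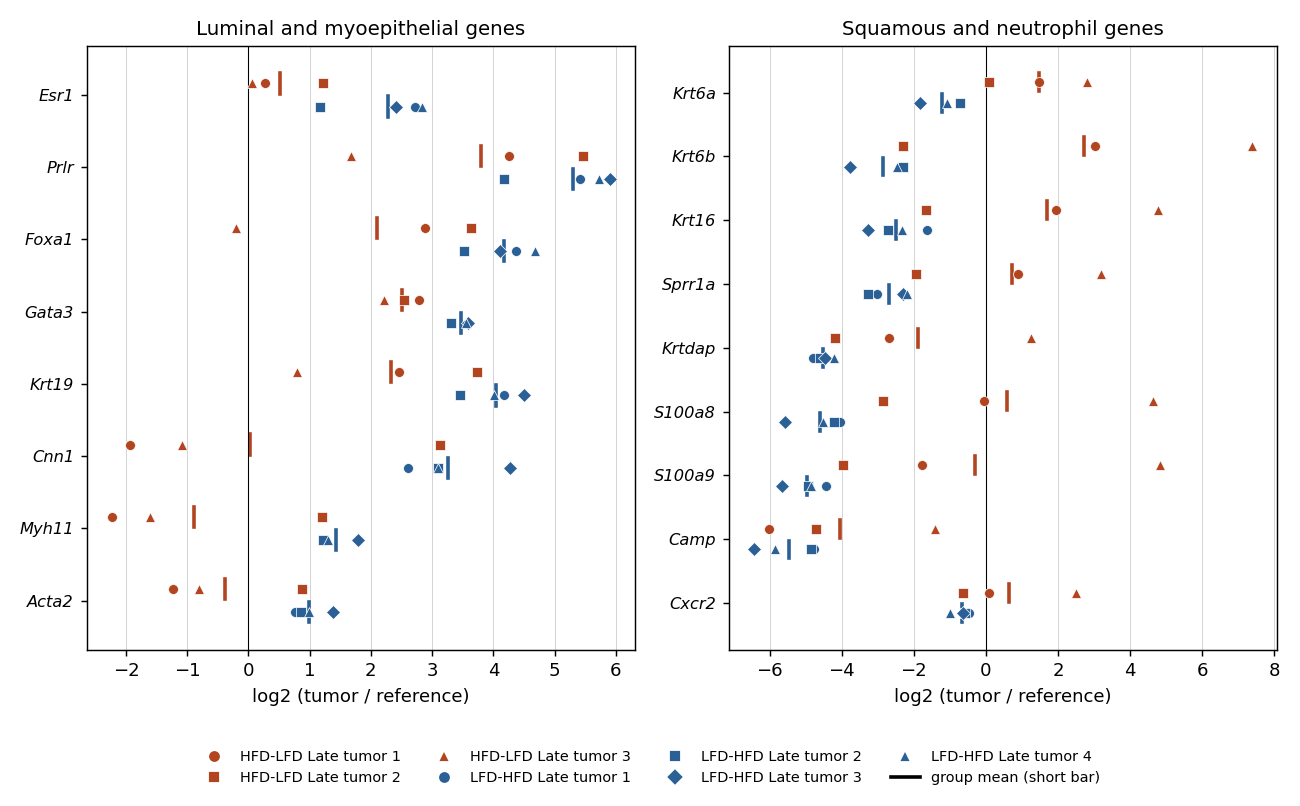
Levels, as log2 of tumor over reference, of luminal and myoepithelial genes on the left and of squamous and neutrophil genes on the right, with points for tumors and short bars for group means. HFD-LFD tumor 3 lies far to the right for squamous and neutrophil genes, and HFD-LFD tumor 2 stays with the LFD-HFD tumors for Cnn1 and Myh11.

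Immune and stromal lists were mostly set by single tumors. Of 10 neutrophil genes 8 were higher, 6 at an unadjusted p under 0.05 (3.47% of all genes), with a median of +1.25. That median was 0.37, with 0 at that threshold, once HFD-LFD tumor 3 was left out. The 6 became 3 without LFD-HFD tumor 3 and 2 without LFD-HFD tumor 4. S100a8, a calcium-binding protein of neutrophils that squamous epithelium also makes, was -0.06, -2.85 and 4.65 against -4.05, -4.23, -5.58 and -4.51, a difference of +5.17 (SE 1.69, 95% interval 1.65 to 8.70, limma adjusted p = 0.637). Its partner S100a9 was -1.78, -3.96 and 4.82 against -5.66 to -4.43. The granule gene Camp, picked after its values were seen, was -6.01, -4.72 and -1.41 against -6.44 to -4.77, so that HFD-LFD tumor 1 lay among the LFD-HFD tumors. Within session 3, where HFD-LFD tumor 3 was set alone against 3 LFD-HFD tumors, the median over 9 neutrophil genes was 3.19, which rests on 1 tumor.

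Of 16 T cell genes 15 were higher, 3 of them at an unadjusted p under 0.05 (3.47% of all genes). The other, Gzmb, was lower without overlap and also passed that threshold (3.78% of all genes were lower at it). It differed by -0.71 (limma unadjusted p = 0.0215). The list's median was +0.85. That median became -0.07, with 7 of 16 higher, 0 of them at that threshold, without HFD-LFD tumor 2. The kinase Lck was -0.27, 3.04 and 0.45 in HFD-LFD tumors and -0.04, -0.71 and -0.95 in LFD-HFD tumors 2 to 4 (difference +1.64, SE 0.58). Cd5, a surface protein of T cells, was 0.29, 2.03 and 1.36 against -0.02, 0.13, -0.37 and -0.82, without overlap (difference +1.5, SE 0.48, limma adjusted p = 0.637). T cell levels were thus highest in HFD-LFD tumor 2, and without HFD-LFD tumor 1 the list had 14 of 16 genes higher at an unadjusted p under 0.05. Over all genes in that setting it was 672 of 20961. B cell genes had a median of -0.05 over 8 tested. Macrophage genes divided evenly, 10 higher and 10 lower (median +0.04). Adgre1, the antigen F4/80 of macrophages, was -0.22, -0.66 and 0.18 against -0.38, 0.65, -0.02 and -0.45, a difference of -0.18 (SE 0.30, 95% interval -0.81 to 0.45). The scavenger receptor Msr1 was 1.16, 0.44 and 0.93 against 0.24, 0.07, -0.29 and -0.18, without overlap (difference +0.88, SE 0.28, limma adjusted p = 0.637). Among 9 genes of alternative activation 6 were higher (4 without HFD-LFD tumor 3), and Arg1 differed by +0.87 (SE 0.72). Cd68 differed by +0.48 (SE 0.31) and Retnla, measured on 2 tumors a group, by -2.08 (SE 1.12).

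Endothelial genes had a median of -0.07 (8 of 21 higher), and Pecam1 differed by -0.05 (SE 0.27, 95% interval -0.62 to 0.52). Fibroblast and matrix genes had a median of +0.26 (12 of 18 higher), which turned to -0.07 without LFD-HFD tumor 1, -0.09 without HFD-LFD tumor 3 and -0.62 within session 2. Within that list Thy1 was -0.23, 0.90 and 1.15 against -1.44, -0.18, -0.22 and -1.17 (difference +1.36, SE 0.41), and Fn1 differed by +1.22 (SE 0.73). Of 8 mesenchymal transcription factors 5 were higher, or 3 without HFD-LFD tumor 3 or without LFD-HFD tumor 1, and Snai2, which is also a factor of basal mammary cells, was -0.15, 0.67 and 0.88 against 2.04, 1.45 and 1.89 in LFD-HFD tumors 2 to 4 (difference -1.33, SE 0.50, limma adjusted p = 0.654). Epithelial adhesion genes had a median of +0.18 (10 of 15 higher). Among them Grhl2, an epithelial transcription factor, differed by -0.37 (SE 0.20).

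Adipocyte genes were lower by 13 of 13, 4 at an unadjusted p under 0.05 (3.78% of all genes), with a median of -1.33. The 4 became 1 without HFD-LFD tumor 1, 6 without HFD-LFD tumor 2, 7 without LFD-HFD tumor 1, 1 without LFD-HFD tumor 3 and 6 without LFD-HFD tumor 4, and 11 with session as a block. LFD-HFD tumor 3 set most of this size, and without it the median was -0.47 with 12 of 13 lower. The mean level over 9 members was 0.65 in that tumor, -2.51, -1.52 and -2.43 in the other LFD-HFD tumors and -3.47, -2.05 and -2.80 in HFD-LFD tumors. Adrb3, the beta-3 adrenergic receptor of fat, was -1.95, -0.57 and -1.70 against -0.29, 0.47, 3.19 and -0.01, without overlap (difference -2.24, SE 0.68, limma adjusted p = 0.637, and -0.68 at the other probe). The lipid droplet protein Plin1 overlapped, at -4.83, -2.98 and -3.53 against -3.11, -2.15, 0.22 and -3.33. Skeletal muscle genes were higher for 15 of 16, with a median of +0.79 and none at an unadjusted p under 0.05. The median was 0.17 without HFD-LFD tumor 1. HFD-LFD tumor 1 lay above all LFD-HFD tumors for 15 of 16 members (28.1% of all genes). Its Myh4 level was 3.07 against -2.22 and -3.31 in the other HFD-LFD tumors and -4.02 to -3.05 in LFD-HFD tumors.

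**Figure D5:**
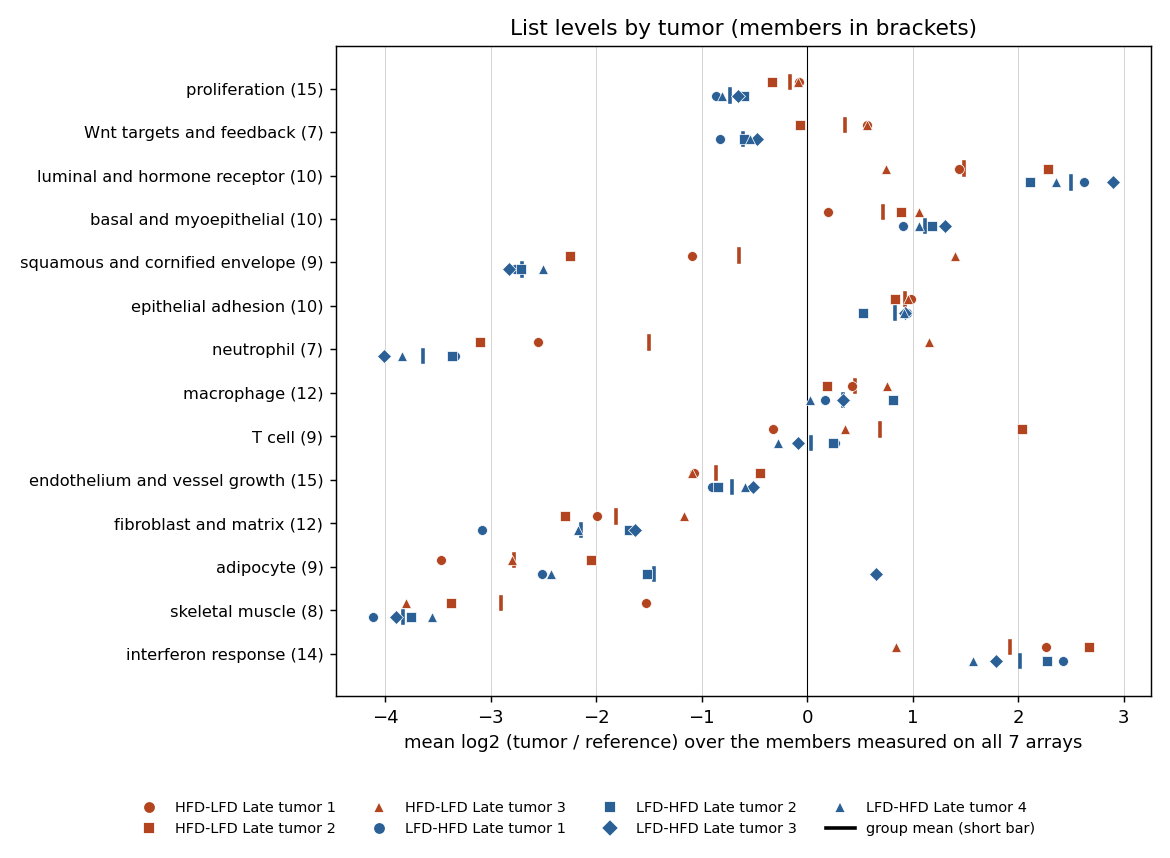
Mean level of 14 gene lists in each tumor, as the mean log2 of tumor over reference over the members measured on all 7 arrays (number in brackets), with short bars for group means. The groups do not overlap for proliferation, Wnt, squamous and neutrophil genes. For squamous, neutrophil, T cell, adipocyte and skeletal muscle genes single tumors lie far from the rest.

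Lipid metabolism genes were examined because the diets differ in fat. Of 17 fatty acid synthesis genes 5 were higher (median -0.22), of 21 oxidation genes 6 (median -0.04) and of 11 LXR targets 4 (median -0.19), with none at an unadjusted p under 0.05. All 3 medians turned when LFD-HFD tumor 3 was left out, to 0.15 with 11 of 17 higher, 0.08 with 13 of 21 and 0.05 with 6 of 11. With session as a block the synthesis median was -0.47. Srebf1, the regulator of lipid synthesis, differed by -0.34 (SE 0.22), Elovl5 by -0.46 (SE 0.29), Acadm by -0.29 (SE 0.15), Cpt2 by -0.49 (SE 0.28) and Nr1h2 by +0.17 (SE 0.13). Of 20 cholesterol synthesis genes 17 were higher, with a median of +0.37, which turned to -0.12 with 9 of 20 higher without HFD-LFD tumor 3 and was 0.03 with 10 of 20 higher within session 2. HFD-LFD tumor 3 lay above all LFD-HFD tumors for 16 of 17 of them, tumor 1 for 5 of 20 and tumor 2 for 7 of 20. Over all genes these shares were 31.7%, 28.1% and 25.0%, so tumors 1 and 2 were near them. Hsd17b7, on 2 tumors a group, differed by +1.47 (SE 0.60), with +0.41 and +1.05 at its other probes, and Dhcr7 by +0.70 (SE 0.42). Insulin and IGF signaling genes were 8 higher and 9 lower. Of these Igfbp2, which binds IGFs, was -3.07, -1.01 and -2.43 against -0.38, -0.79, -0.85 and -0.08, without overlap (difference -1.65, SE 0.67, limma adjusted p = 0.683), and Irs2 was +1.0 (SE 0.51) on 2 tumors a group.

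Interferon response genes had a median of +0.02 (12 of 22 higher), with opposite tumors within the HFD-LFD group: tumor 2 lay above all LFD-HFD tumors for 14 of 22 and tumor 3 below all of them for 15 of 18. Cxcl9 and Ifih1 differed by -0.54 (SE 0.41) and -0.49 (SE 0.37). Of 16 hypoxia and glycolysis genes 12 were higher (median +0.45), 3 at an unadjusted p under 0.05 (3.47% of all genes). Without HFD-LFD tumor 2 the median was 0.12 with 9 higher and 1 at that threshold, without HFD-LFD tumor 3 it was 0.80 with 6, and within session 3 it was -0.27 with 3 of 11 higher. HFD-LFD tumor 2 lay above all LFD-HFD tumors for 13 of 16 while tumor 3 did so for 1 of 11 (25.0% and 31.7% of all genes). Ankrd37, a target of hypoxia-inducible factor, was 1.25, 0.97 and 1.13 against -0.91, -1.54 and 0.50 in LFD-HFD tumors 2 to 4 (difference +1.77, SE 0.48, limma adjusted p = 0.637). Egln3, the oxygen-sensing hydroxylase, differed by +1.54 (SE 0.55). Milk protein genes had a median of -0.27 over 12 tested, which turned to 0.06, 0.09 and 0.03 without HFD-LFD tumor 2, LFD-HFD tumor 2 and LFD-HFD tumor 3. LFD-HFD tumors 2 and 3 were high in Csn1s2b at 4.78 and 4.61 against 0.91 and 0.31 in the other LFD-HFD tumors. Red blood cell genes had a median of +0.20 over 5 tested, and -0.0034 without LFD-HFD tumor 1.

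A panel of genes was chosen because it had also been assayed by qRT-PCR. Its 7 tested members overlapped between the groups. The neurotrophin Ntf3 differed by +0.54 (SE 0.57), the bone morphogenetic protein Bmp7 by +0.41 (SE 0.54), the caspase activator Apaf1 by -0.33 (SE 0.41), the cyclin Ccnd2 by +0.16 (SE 0.84), Trp53 by -0.14 (SE 0.39) and beta-catenin (Ctnnb1) by +0.09 (SE 0.21). Ntf3 was dim, well above background on 2 of 3 HFD-LFD and 3 of 4 LFD-HFD arrays. Brca1 was well above background on 1 of 3 HFD-LFD and 1 of 4 LFD-HFD arrays, so no difference is given for it. The median of the panel was +0.09, and these intervals leave room for changes of more than 1 log2 unit for Ntf3, Bmp7, Apaf1 and Ccnd2. Of 4 tested genes of a growth factor and chemokine panel, 3 were higher, among them Ccl1, for which no difference is given. Tgfa, a ligand of the EGF receptor, was 0.70, -0.02 and 0.71 against -0.20, -0.40, -0.32 and -0.03 (difference +0.70, SE 0.32, limma unadjusted p = 0.038, adjusted p = 0.686). Ccl17, a chemokine that draws T helper cells, was 1.32, 2.60 and 2.86 against 1.28 to 1.69 (difference +0.73, SE 0.32), so that HFD-LFD tumor 1 stayed within the LFD-HFD range. Ccl1 was well above background on 1 of 3 HFD-LFD and 4 of 4 LFD-HFD arrays, so no difference is given for it. Tgfb1 differed by -0.04 (SE 0.33), and the receptor tyrosine kinase Erbb2 by +0.04 (SE 0.20, 95% interval -0.36 to 0.45).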

How the data were processed

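RNA of each tumor and a reference RNA was hybridised to 2-colour Agilent arrays. The authors deposited scanner output per array: the mean intensity and local background intensity of each spot in Cy5 and Cy3, and a log10 ratio already corrected for background and dye by the scanner software, which was used as an alternative. Per the submitters' processing notes the software was Agilent Feature Extraction 8.5.1.1, whereas the file headers name modules of version 11.0.1.1. Probe positions are on mm9. The study's own normalization, filter and imputation are not in these files.

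Intensities were read into limma 3.58.1 under R 4.3.3, with statmod 1.5.0 for block correlations. For the background, limma's normexp model (offset 50) was fitted after setting flagged outlier spots aside, and a loess curve was taken out of each array's ratios (span 0.3, 4 iterations). Spots flagged as outlying features were left out (0.318% to 0.418% per array). Spots with an outlying local background kept their signal with the array's median background, a choice made after the data were seen, because leaving them out removed abundant genes such as Krt18 and Col1a1. Dim Cy5 rows (slide 7, rows 1 to 110 of 3 arrays, and slide 6, rows 381 to 532 of 1 array) were left out without imputation in the main setting, and 48.5% of genes had their probe in such a row. Of 39429 probes, 27308 exceeded local background by 10 intensity units in Cy3 and in Cy5 on 80% or more of the arrays where they could be measured, and 20961 genes with at least 2 measured arrays per group were tested at the probe of highest mean intensity. Gene names came from RefSeq for 31393 probes (matched on the accession for 27324, the current symbol for 3518 and a former symbol for 551), and the file's own name was kept for 8036. In all, 271 genes were above background in the tumor channel on no array of one group. None of these is described, except Pax5 below.

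Tumors were grouped by the labels. All 24 arrays entered 1 fit with 6 group means, so the spread was shared over groups, and the contrast was HFD-LFD Late minus LFD-HFD Late with Benjamini-Hochberg adjustment over all genes. Genes were named by rule: the 10 in each direction with the smallest p among those without overlap, both study panels, the genes whose products were stained, and the 2 members with the smallest p of every other list, some of which are not reported here. Members and lists were chosen with earlier results of these data known. Lists are described by counts and medians without a test. Probes of a gene disagreed in sign for Cpt2 among the genes named, and differed in size for others, as given beside them. Pgr, Bmp10, Ccl20 and Ccl22 did not pass the filter and were not tested. The test was checked on simulated data. Alternatives covered arrays, rows, background, normalization, filter, imputation, probes, session, slide, weights and leaving out each tumor.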

Additional observations from a re-analysis of the deposited data

Results flagged for a closer look

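Dixon's ratio was computed for the named genes measured on all 4 LFD-HFD tumors, 54 in number, and chance gives about 1 value in 20 past its limit. For D930023I05Rik, LFD-HFD tumor 2 was far from the other LFD-HFD tumors, with a ratio of 0.8514, at 3.27 against 1.67, 1.78 and 1.91 log2 units over the reference. The other 53 genes did not pass that limit.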

How the results depend on the processing

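The count of genes at an adjusted p under 0.05 was 0 on the 7 tumors and 12 within session 2, 18 within session 3 and 11 with slide as a fixed block, and leaving out single tumors gave 0 to 20. The 12 (all lower, such as Lipe and Pnpla3) set LFD-HFD tumor 3 alone against 2 tumors, and the 18 (17 higher, such as Camp and Mpo) set HFD-LFD tumor 3 alone against 3, with the lone tumor assumed to vary like the other groups, so these calls rest on 1 tumor each. The 20 were those without HFD-LFD tumor 1, where genes of the slide 7 dim rows had 1 HFD-LFD tumor left, under the same assumption. The count at an unadjusted p under 0.05 was 1520, and 742 within session 2, 2578 with array weights and 902 over the 11032 genes measured on all 7 arrays, where fewer genes were tested. Leaving out single tumors gave 1154 to 1894. With slide as a fixed block the groups met on slide 7 alone, where HFD-LFD tumor 3 was the sole HFD-LFD tumor. Camp and Mpo, named above for session 3, were also among the calls of that setting. The cause of the other changes was not tested. Under the 27 alternatives the 43 named genes at an unadjusted p under 0.05 kept their direction. That was in part fixed by the choice of genes. Genes named for groups without overlap cannot change sign when a tumor is left out, and settings that alter the error alone keep every difference. Of the other 40 named genes, 20 had the opposite sign under at least 1 alternative. The median kept its sign for 9 of 27 lists. The settings restricted to genes measured on all 7 arrays, or without spots of outlying local background, were added after the data were seen. No paired analysis was possible because the replicate numbers were given in accession order and mark no shared animal or litter, and the number that 2 titles share joins 1 pair of tumors. With 3 and 4 tumors, and 2 in each group for genes of dim rows, the number of arrays limits the precision.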

Other observations

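Leading genes were also measured in the late tumors of the continuous diets, which the comparison above does not use. Tcf7 averaged -0.39 ± 1.06 (SD, n = 4) in LFD Late and -0.51 ± 0.58 (SD, n = 4) in HFD Late tumors, between the HFD-LFD mean of 0.75 and the LFD-HFD mean of -2.15. Lef1 averaged -2.15 ± 0.72 (SD, n = 5) and -1.88 ± 0.32 (SD, n = 6), close to the LFD-HFD mean of -2.19. BC024137 averaged 0.72 ± 0.24 (SD, n = 4) and 0.38 ± 0.18 (SD, n = 4), between the HFD-LFD mean of 0.24 and the LFD-HFD mean of 1.32. These values are descriptions, and the differences among these groups were not tested here.

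Pax5, the B cell factor, was above background on no HFD-LFD array and 1 LFD-HFD array, so its level gave no comparison. Hbb-bt, Hba-a1, Cd79a, Snai1, Sox17, Erg, Mfge8 and Myh1 differed by +0.37, +0.33, +0.24, +0.63, -0.68, +0.40, -1.38 and +2.51 log2 units, each overlapping between the groups except Myh1, which was measured on 2 tumors a group. Erg was dim, well above background on 2 of 3 HFD-LFD and 3 of 4 LFD-HFD arrays.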
